A study of Rattus norvegicus with 4 samples.

Results

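The genes described here encode tumour necrosis factor (TNF), the protease that releases it, its receptors, the proteins that carry its signal and the proteins that switch the signal off. The 10 genes were chosen by symbol (Tnf, Adam17, Tnfrsf1a, Tnfrsf1b, Traf1, Traf2, Ripk1, Birc3, Tnfaip3 and Tnip1), and every probe whose RefSeq accession led to one of them was taken. This gave 10 probes for 9 genes, out of 21023 probes for 16526 named genes. Tnf had 2 probes and each of the other genes had 1, and each probe had 1 spot on an array. No probe was matched to Tnfaip3, which is not analysed here beyond its promoter sequence.

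The RNA came from NR8383, a macrophage line started from the lung lavage of a normal rat and used as a model of the alveolar macrophage. All 4 samples are labelled as cells at 20 passages that had met the zinc ferrite particle NRCWE021 (zinc iron oxide, ZnFe2O4) at 17 µg/mL during 4 h, and each is a biological replicate measured on its own 1-colour array. The study set such cells against unexposed ones, and arrays of the latter were not analysed here. What follows is therefore detection, signal and spread of these genes in exposed cells, with no statement on the effect of exposure. In such bulk RNA, fewer cells that express a gene and less of its RNA per cell cannot be told apart.

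TNF is made by macrophages as a membrane protein, and the protease ADAM17 cuts it free. TNF binds TNFR1, which most cells carry, and TNFR2, which is more restricted. TNFR1 gathers TRAF2, RIPK1 and the ubiquitin ligases cIAP1 and cIAP2 into a complex that turns on NF-kB. NF-kB in turn induces Tnf itself, Traf1 and Birc3, and also the brakes Tnfaip3 (A20) and Tnip1 (ABIN-1), which remove or mask the ubiquitin chains of the complex.

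The promoters of the brakes carry the factor's own motif, and their sequences are shown because they are the part of the loop that can be read directly as bases. In RefSeq promoters of the GRCr8 build, which run from 250 bases before to 50 after a gene's start, the NF-kB consensus was searched on both strands. It was found in 2 of the 9 promoters listed for these genes, those of Tnfaip3 and Tnip1, and in 7.51% of all 33469 promoters. Birc3 was not among the 9. The 250 bases before the start are given 5′ to 3′ on the gene's strand, with matches in capitals. Those of Tnfaip3 lie at chr1:15543980-15544229 (minus strand) and those of Tnip1 at chr10:39584962-39585211 (minus strand).
Tnfaip3: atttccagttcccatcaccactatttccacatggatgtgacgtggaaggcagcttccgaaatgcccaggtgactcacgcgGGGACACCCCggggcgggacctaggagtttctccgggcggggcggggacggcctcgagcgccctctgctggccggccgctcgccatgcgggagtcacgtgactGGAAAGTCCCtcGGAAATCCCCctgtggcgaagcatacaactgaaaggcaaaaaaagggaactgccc
Tnip1: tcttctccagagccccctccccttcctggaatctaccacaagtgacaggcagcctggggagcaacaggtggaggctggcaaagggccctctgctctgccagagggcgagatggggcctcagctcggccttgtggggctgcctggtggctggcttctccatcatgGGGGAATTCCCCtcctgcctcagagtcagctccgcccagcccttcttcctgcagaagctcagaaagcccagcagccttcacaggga

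In Tnfaip3 the capitals form 3 separate stretches. The first match was read on both strands, and the matches GGGACTTTCC and GGGGATTTCC are read on the strand opposite to the gene. In Tnip1 the matches GGGGAATTCC and GGGAATTCCC overlap in 1 stretch that reads the same on both strands. The Tnf promoter held no match to the consensus in this window. It held a looser core, GGG and CC with any 5 bases between them, which also covers the consensus and occurred in 47.3% of all promoters and in 8 of these 9, all but that of Tnfrsf1a. In the 250 bases before the Tnf start (chr20:3626435-3626684, plus strand) the core matched 1 stretch, in capitals here.
Tnf: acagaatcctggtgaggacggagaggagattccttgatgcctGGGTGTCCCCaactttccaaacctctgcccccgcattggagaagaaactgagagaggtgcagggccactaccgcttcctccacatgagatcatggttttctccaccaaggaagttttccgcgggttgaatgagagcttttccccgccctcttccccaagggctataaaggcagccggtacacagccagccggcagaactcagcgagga
A match is a description of these letters and does not show binding.

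The arrays differed in how they read dim probes, which bears on every value below. The median processed signal over gene spots was 13.5, 542, 133 and 7.37 intensity units on replicates 1 to 4. The dimmest spike-in, a control RNA added to each sample, was the spike-in with the lowest signal on replicate 1. It read 3.49, 554, 115 and 3.75 units in the same order, with 0, 35, 34 and 0 of its 35 spots well above background by the scanner software's flag. On replicate 2 another spike-in read lower, at 532 units. Of the macrophage markers 9 of 10 measured were detected on all arrays, against 42.4% of all named genes, and Marco was not on replicate 1 or 4. Of 27 measured markers of epithelial, T, B, neutrophil, mast, fibroblast and endothelial cells, 3 were (Cd4, which macrophages also express, Dcn and Cdh5). By array, 4, 26, 18 and 3 of the 27 were detected on replicates 1 to 4, against 52.2%, 91.5%, 75.3% and 46.2% of all named genes. The 6 epithelial markers had a summed signal of 34.7, 4232, 894 and 18.7 units on replicates 1 to 4, against 149324, 101893, 79059 and 76314 for the macrophage markers. All samples were of the NR8383 line. The summed epithelial signal and the dimmest spike-in were both higher on replicates 2 and 3 than on replicates 1 and 4. Whether any value holds RNA of other cell types was not tested.

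Detection on every one of the 4 arrays, with a signal well above background, was found for 6 of the 9 genes: Tnf, Adam17, Tnfrsf1a, Traf2, Ripk1 and Tnip1. The same count was found on replicates 1 and 4, the arrays with 0 flagged spots for the dimmest spike-in. Over all named genes the share was 42.4% on all 4 arrays and 45.9% on replicates 1 and 4. Counted by probe, 7 of the 10 were detected on all 4 arrays, against 39.8% of named probes. The other members each missed differently. Birc3 was well above background on replicates 1, 2 and 3, Traf1 on replicates 2 and 3, and Tnfrsf1b on replicate 1. By array, 8, 8, 8 and 6 of the 9 genes were detected on replicates 1 to 4, against 52.2%, 91.5%, 75.3% and 46.2% of all named genes.

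**Figure D1:**
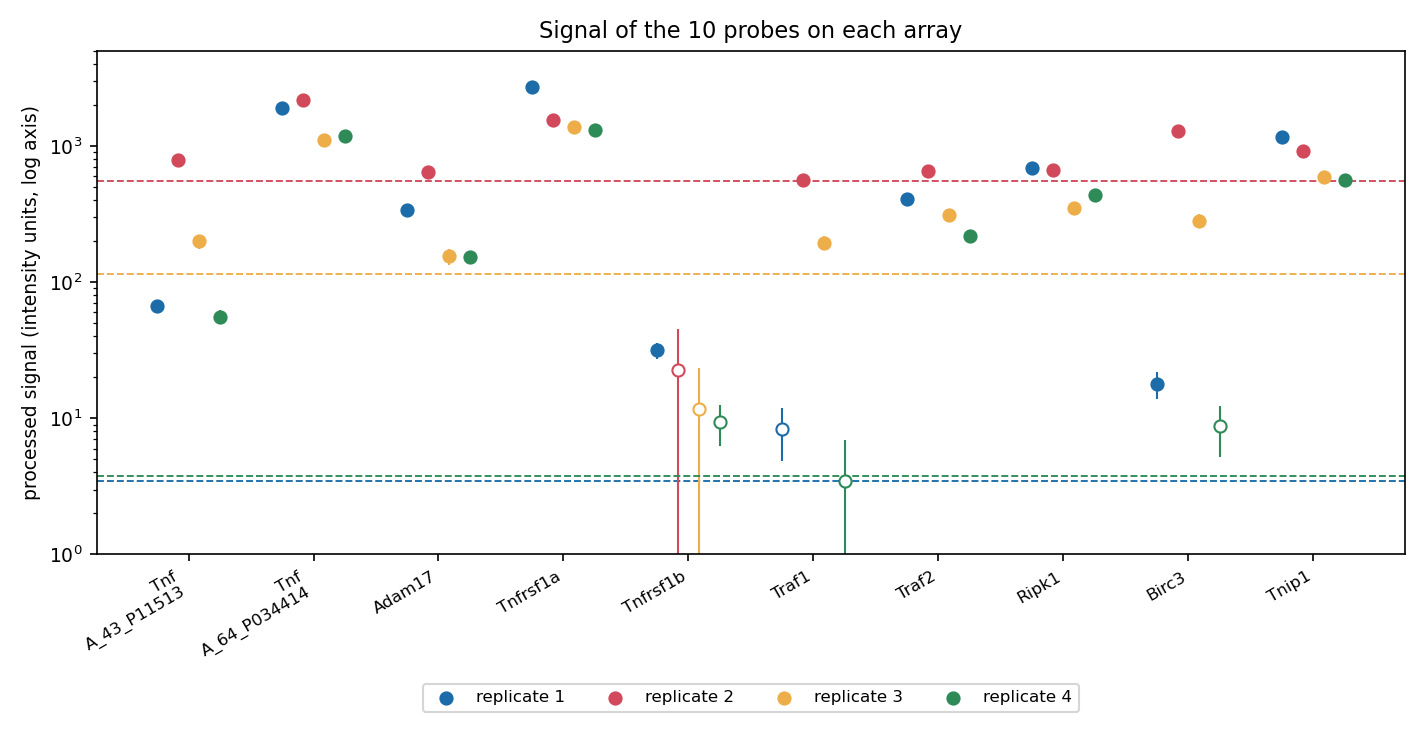
Processed signal (intensity units, log axis) of each of the 10 probes on the 4 arrays, with the scanner software's error as bars that end at the lower edge of the plot where the error reaches the signal. Filled points were well above background and open points were not. Dashed lines mark the signal of the spike-in that was dimmest on replicate 1, on the array of the same colour: 3.49, 554, 115 and 3.75 units on replicates 1 to 4.

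The Tnf probes gave different pictures of the spread. Probe A_64_P034414 read 1907, 2184, 1105 and 1190 units on replicates 1 to 4, with a software error of 191, 220, 111 and 119 units. It was well above background on each array, and replicates 1 and 2 were the higher pair. Probe A_43_P11513, assigned to the same RefSeq transcript (NM_012675), read 66.4, 792, 200 and 55.6 units, with errors of 7.47, 82.1, 23.4 and 6.34 units. Such an error is that of a single spot on its array. Differences between arrays that are set against it below are of unscaled signals and do not measure the spread between cultures.

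For this second probe the values lay further apart: replicate 2 read 11.9 times replicate 1, while for the first probe the ratio was 1.14. On replicates 2 and 3 its signal lay within the range of the 3 spike-ins that were not well above background on replicates 1 and 4, which was 554 to 1229 units on replicate 2 and 115 to 278 on replicate 3. The first probe lay above that range on both. Spike-ins that read more on replicate 1 were compressed in the same way: those at 29.7, 85.2 and 178 units there were at 532, 607 and 668 on replicate 2.

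A scaled level is the log2 signal minus the 75th percentile, on the same array, of the 12899 probes well above background on all arrays, so that 0 is a bright probe and not absence. On this scale probe A_64_P034414 had a level of 0.38 ± 0.14 (SD, n = 4) and probe A_43_P11513 a level of -2.92 ± 1.65 (SD, n = 4). The mean over both probes was -1.27 ± 0.86. A single level for Tnf thus depended on the probe chosen by more than the spread between arrays, and no level is set against another probe's below.

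Adam17, the protease that sheds TNF and its receptors, was well above background on each array (probe A_44_P517650, NM_020306). Its signal was 340, 646, 155 and 154 units on replicates 1 to 4. Replicate 2 stood highest, and replicates 3 and 4 were within the software errors of 21.2 and 15.8 units of each other. The level was -2.13 ± 0.51 (SD, n = 4), with -1.37 on replicate 2 and -2.45 to -2.30 on the other arrays. On replicates 2 and 3 the signal lay within the range of the 3 dim spike-ins, so there the flag does not separate it from spike-ins that were not detected on replicates 1 and 4.

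Tnfrsf1a was detected on all 4 arrays and Tnfrsf1b on replicate 1. Tnfrsf1a, which encodes TNFR1, the receptor with a death domain, read 2705, 1562, 1376 and 1311 units on replicates 1 to 4 (probe A_43_P15259, NM_013091), and was above the range of the dim spike-ins on both replicates 2 and 3. Replicate 1 was the highest, and the remaining arrays lay between 1311 and 1562 units. Its level was 0.50 ± 0.40 (SD, n = 4), with -0.10 on replicate 2 and 0.64 to 0.76 on the others.

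Tnfrsf1b, which encodes TNFR2, the receptor without a death domain, read 31.5, 22.6, 11.7 and 9.39 units (probe A_64_P125973, NM_130426), with errors of 4.39, 22.7, 11.8 and 3.14 units. On replicates 2 and 3 the error was as large as the signal. The signal there was 0.98 and 0.91 times the median of the array's 308 negative control spots, whereas the probes of the other 8 genes read at least 12.03 times it on those arrays. On replicates 1 and 4 it was 9.13 and 2.82 times the negative control. The probe was well above background on replicate 1 alone, a pattern shared by 151 of the 21023 named probes (0.718%), and 9.42% of named probes were not well above background on replicates 2 and 3. No level is given for Tnfrsf1b.

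**Figure D2:**
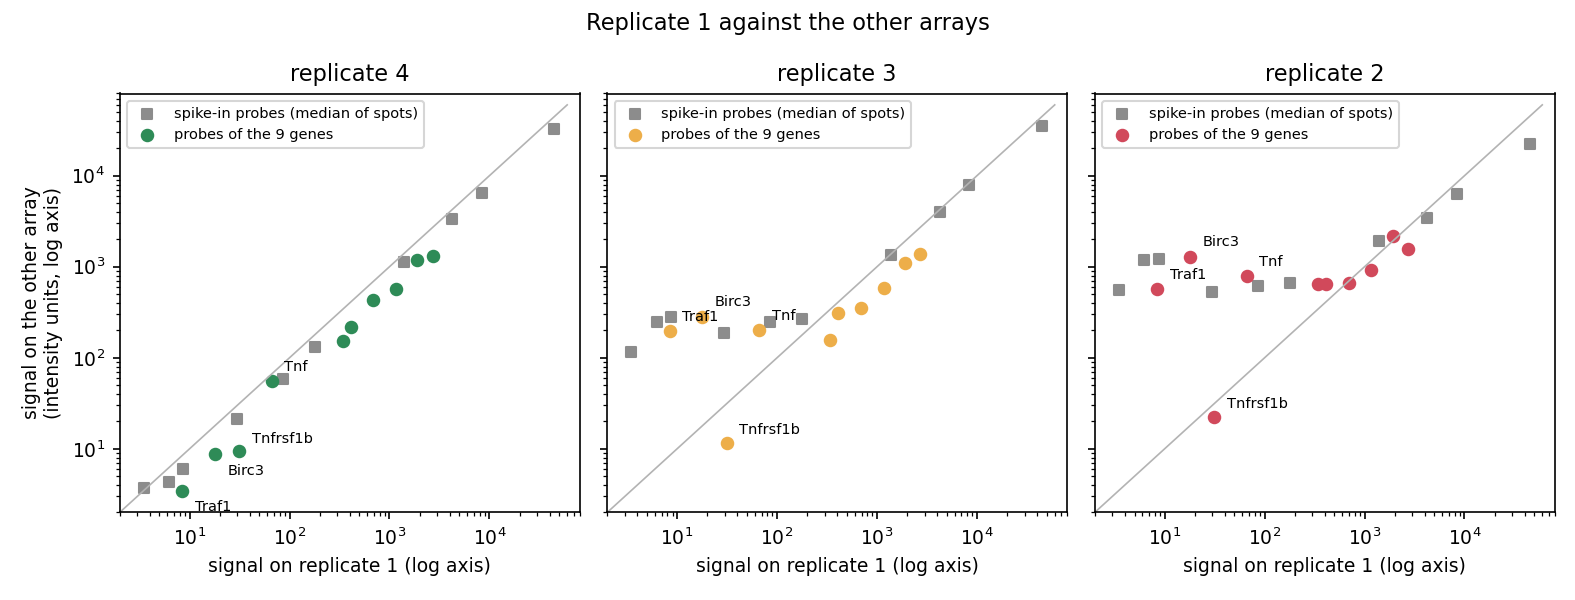
Signal on replicate 4, 3 and 2 (vertical, log axis) against signal on replicate 1 (horizontal, log axis), in intensity units, for the 10 probes (coloured circles) and 10 spike-in probes (grey squares, median of 35 spots), with the line of equal signal. On replicate 4 the points run along the line or somewhat below it, on replicates 2 and 3 the dim spike-ins and the probes of Traf1, Birc3 and the dimmer Tnf probe level off well above it, and the Tnfrsf1b probe falls below it.

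Among the signal carriers, Traf2 and Ripk1 were detected throughout. Traf2, the adaptor that brings the cIAP ligases to the receptors, read 408, 654, 311 and 220 units on replicates 1 to 4 (probe A_44_P241277, NM_001107815), a level of -1.68 ± 0.36 (SD, n = 4). Ripk1, the kinase at the branch between NF-kB and cell death, read 691, 665, 350 and 434 units (probe A_42_P722994, NM_001107350), a level of -1.19 ± 0.17 (SD, n = 4). For Ripk1 replicates 1 and 2 differed by less than the software errors of 69.2 and 70.2 units, whereas for Traf2 replicate 2 was higher than replicate 1 by more than the errors of 41.0 and 69.2 units together. Both lay within the range of the dim spike-ins on replicate 2 and above it on replicate 3.

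Traf1 and Birc3, both known NF-kB targets, read at or below 17.8 units on replicates 1 and 4 and were detected with much higher signals on the other two arrays. Traf1, an adaptor that pairs with TRAF2, read 8.41, 564, 195 and 3.47 units on replicates 1 to 4 (probe A_43_P18591, NM_001271240). Replicates 2 and 3 were far above the others, at a signal within the range of the dim spike-ins on the same arrays. On replicate 4 the signal was 1.04 times the negative control. The pattern of detection on replicates 2 and 3 and on neither other array was found in 26.3% of named probes. Traf1 is therefore given no level.

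Birc3, the ubiquitin ligase cIAP2, read 17.8, 1284, 283 and 8.75 units (probe A_43_P12384, NM_023987). It was well above background on both replicates 1 and 2, and replicate 2 read 71.9 times replicate 1. On replicates 2 and 3 the signal lay just above the range of the dim spike-ins, which ended at 1229 and 278 units, and the gap on each was smaller than the software error of 130 and 31.0 units. On replicates 1 and 4 it was 5.17 and 2.62 times the negative control. It was detected on replicate 1 and not on replicate 4, where the error was 3.56 units. No level is given.

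Of the brakes, Tnip1 could be read. Tnip1, which holds A20 to ubiquitin chains, read 1163, 915, 589 and 566 units on replicates 1 to 4 (probe A_64_P001759, NM_001108826), with errors of 116, 94.7, 61.2 and 56.8 units. Replicates 1 and 2 were the higher pair, and replicates 3 and 4 differed by less than their errors. The level was -0.61 ± 0.18 (SD, n = 4). The signal was within the range of the dim spike-ins on replicate 2 and above it on replicate 3. Of the 2 promoters with the consensus, RNA was thus measured for that of Tnip1 and not for that of Tnfaip3.

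The 7 probes detected on all arrays each read higher on replicate 1 than on replicate 4, by 1.20 to 2.21 times, and the median ratio over the 12899 probes detected on all arrays was 1.90. After scaling, the levels of these 7 probes differed between replicates 1 and 4 by 0.74 for the dimmer Tnf probe, 0.31 for the brighter one, 0.32 for Ripk1 and 0.15 or less for Adam17, Tnfrsf1a, Traf2 and Tnip1. The median absolute difference over all such probes was 0.22. A second reading of detection used a spike-in threshold. It asked for a signal above the dimmest spike-in, the same spike-in on every array, by 3 SD of its spots. This was 8.25, 1154, 402 and 8.04 units on replicates 1 to 4. On replicates 1 and 4 this threshold was low enough to pass probes that were not flagged as well above background, Traf1 on replicate 1 and Tnfrsf1b and Birc3 on replicate 4, while on replicates 2 and 3 it left out probes that were. By it 2 of the 9 genes passed on all arrays, Tnf through probe A_64_P034414 and Tnfrsf1a, against 14.8% of all named genes. By probe the count was 2 of 10, against 13.5% of named probes.

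The SD over 4 arrays of the 7 probes detected on all of them ran from 0.14 to 1.65, with a median of 0.36, against a median of 0.47 over all 12899 such probes. Without replicate 2 the median of the 7 was 0.17. The SD also depended on the scaling. With the 75th percentile over all probes the 7 probes had a median SD of 1.63, with scaling on the 3 brightest spike-ins 0.59 and with quantile normalization 1.05. The dimmer Tnf probe had the largest SD of the 7 on the main scale and the smallest when all probes set the percentile. The SDs therefore do not rank these genes by their spread between cultures.

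**Figure D3:**
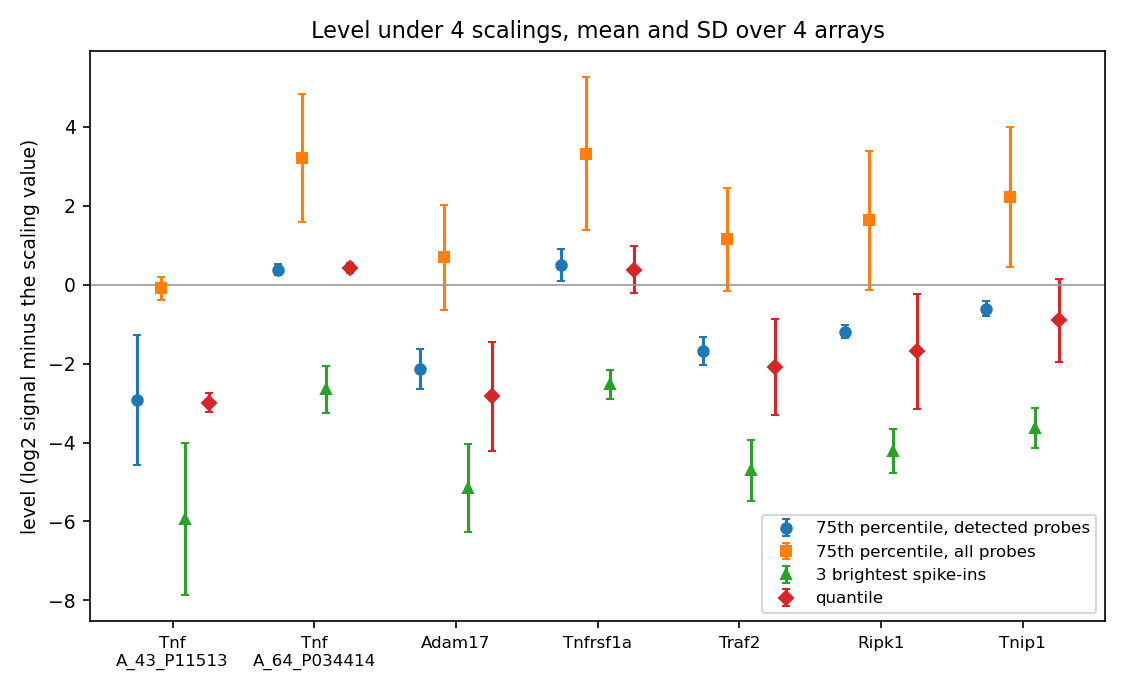
Level (log2 signal minus the scaling value, mean and SD over 4 arrays) of the 7 probes that were well above background on all arrays, under 4 scalings. The zero differs between scalings, so the bars are what compares: for the dimmer Tnf probe the SD is 1.65 with the percentile of detected probes and 0.29 with that of all probes.

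Other genes of the pathway were counted in lists. Of 52 measured genes, 36 were detected on each array and 38 on replicates 1 and 4, against 42.4% and 45.9% of all named genes. All 10 measured adaptors and kinases of the receptor complex were detected on each array, including the adaptor Tradd at a level of 0.28 ± 0.30, the ligase Birc2 (cIAP1) at -2.49 ± 1.06 and the linear ubiquitin ligase Rnf31 at -1.51 ± 0.99. All 4 measured genes listed with the TRAF family, other than Traf1 and Traf2, were as well. These were Traf4 at -2.26 ± 1.50, Traf6 at -3.73 ± 1.57, Traf7 at -1.01 ± 0.28 and Tank, which binds TRAF proteins and is not one itself. Traf3 and Traf5 were not measured. The 6 measured genes of the death arm were detected on all arrays too. Fadd, the adaptor of the death complex, had a level of -3.56 ± 0.84 and the protease Casp8 one of -3.23 ± 0.38. Cflar, which restrains that protease, had 2 probes, of which the brighter was detected on 3 arrays. Levels are means ± SD over n = 4 arrays of a gene's brightest probe. On replicates 2 and 3 Traf6 read 434 and 110 units, Fadd 312 and 75.5, and Casp8 222 and 111. These lay below the dimmest spike-in there, at 554 and 115 units. Birc2 read 750 and 185 units, within the range of the dim spike-ins on both arrays. Rnf31 (1052 units), Traf4 (946) and Traf7 (721) were within that range on replicate 2 and above it on replicate 3. Tank read 527 and 175 units, below it on replicate 2 and within it on replicate 3. Tradd was above it on both. Within or below that range the flag does not separate a gene from spike-ins not detected on replicates 1 and 4, which limits its level too.

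Of 8 measured genes of ubiquitin editing and other brakes, 5 were detected on all arrays. The deubiquitinase Cyld had a level of -3.66 ± 0.41, Otulin, which cuts linear chains, -0.32 ± 0.05, and Spata2, which links Cyld to the complex, -2.02 ± 0.19. Cyld read 198 and 63.2 units on replicates 2 and 3, below the dimmest spike-in on both. Spata2, at 497 units, was below it on replicate 2. Itch and Otud7b were detected on replicates 2 and 3 and on neither other array, and Rnf11 was not detected on replicate 3. Of 10 genes that act on Tnf mRNA or on shedding of TNF, 7 were detected on all arrays, including Zfp36l1 at -3.25 ± 0.71 and the mRNA-binding Elavl1 at 0.89 ± 0.36. Tia1, also among the 7, had 3 probes, of which the brightest was detected on 3 arrays. That probe read 20.6, 916, 131 and 4.96 units on replicates 1 to 4. Zfp36l1 read 329 and 96.1 units on replicates 2 and 3, also below the dimmest spike-in. Zfp36 (tristetraprolin), which speeds the decay of Tnf mRNA, did not reach the flag on a single array, at 8.58, 22.8, 11.9 and 6.44 units. It had 1 probe, and on replicates 2 and 3 the median of the negative control spots was 23.0 and 12.9 units. Absence of its RNA is not shown by this. Timp3, an inhibitor of ADAM17, was detected on replicates 2 and 3 and on neither other array, and Rhbdf1 was not on replicate 2.

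The other ligands and receptors of the TNF superfamily were the list with the lowest share, with 4 of 14 measured genes detected on all arrays. These were the ligand Ltb at -1.08 ± 0.71, its receptor Ltbr at 1.77 ± 0.10, and Fas and Tnfrsf21, which both encode death receptors. On replicate 2 Fas read 522 units and Tnfrsf21 398, below the dimmest spike-in. On replicate 3 they read 135 and 214 units, within the range of the dim spike-ins. Ltb, at 1186 units, was within that range on replicate 2 and above it on replicate 3. Ltbr was above it on both. A further 5 of the 14 were detected on replicates 2 and 3 and on neither other array, among them Lta, which encodes lymphotoxin alpha, a further ligand of TNFR1 and TNFR2. Over all named genes that pattern was found in 27.7%. By the spike-in threshold, 10 of the 52 pathway genes passed on all arrays, against 14.8% of all named genes.

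**Figure D4:**
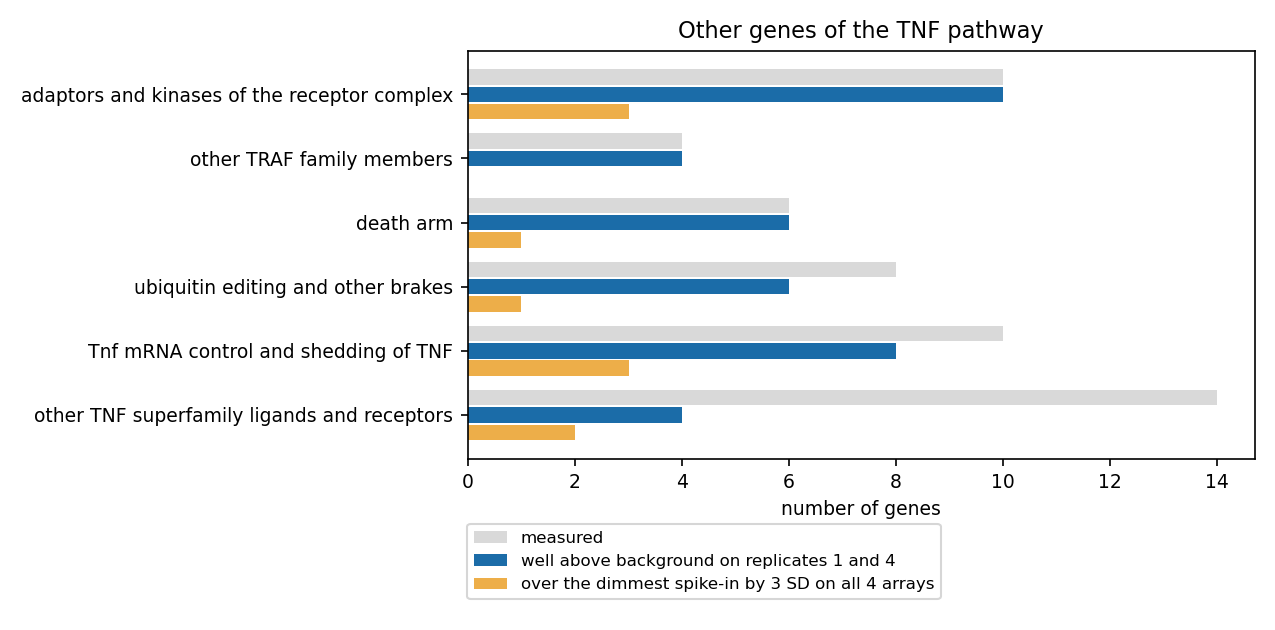
Number of genes in each list of the TNF pathway that were measured (grey), well above background on both replicate 1 and replicate 4 (blue) and above the dimmest spike-in by 3 SD on all 4 arrays (yellow). All measured genes of the first 3 lists are counted in blue, against 4 of 14 of the other superfamily ligands and receptors.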

How the data were processed

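Arrays carried 1 colour (Cy3). Per the file headers, the authors used Agilent Feature Extraction 11.0.1.1 on the scanned slide, and the deposited processed intensity is background-subtracted and corrected for spatial trends within an array, with no normalization between arrays recorded. The headers also give spot flags and an error per spot. The array design names build rn4, so no gene coordinates were used apart from those of the RefSeq promoters. The deposited value table of the series equals the median spot intensity of the same arrays on all 62976 spots and is linear and not centred.

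Control spots and outlier spots (832, 946, 1109 and 868 gene spots on replicates 1 to 4) were left out, none of them a spot of the 10 probes. Spots of 1 probe were averaged as log2, and a probe counted as well above background when most of its spots were flagged. Of 45598 probes, 45385 had a value on every array, and 21023 of these were named through the RefSeq gene table of GRCr8 by unversioned accession. A gene counted as detected when any probe was. The percentile was taken over detected probes because most probes were not detected on all arrays. The samples analysed here form 1 group, so no test between groups was made. The number of arrays limits the precision, and the labels call the samples biological replicates.

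Genes named were all members and the first 3 measured genes of each pathway list, plus, in any list, exceptions of 5 or fewer. Traf3, Traf5, Tank and Tia1 were named in addition. Members and lists were chosen with earlier results of these data known. Alternatives used Python 3.11.15 and limma 3.58.1 (normexp, offset 50, on median signals, since mean spot signals were not used here). No probe or protein sequences were used here.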

Additional observations from a re-analysis of the deposited data

Results flagged for a closer look

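The level of Adam17 on replicate 2 (-1.37) stood apart from those on the other arrays (-2.45 to -2.30), with a gap that was 0.861 of the whole range. The level of Tnfrsf1a on replicate 2 (-0.10) stood apart from 0.64 to 0.76 on the others, with a gap of 0.862 of the range. The first was high and the second low. Levels of 28 probes and genes were examined, each against Dixon's limit for 4 samples, and chance alone sets apart about 1 in 20 such groups. Replicate 2 is also the array on which the dimmest spike-in read 554 units, and its part in these values was not tested.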

How the results depend on the processing

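The count of 6 genes detected on all arrays was 6 or 7 with the other detection flag, with detection on replicates 1 and 4 or on at least 3 arrays, with outlier spots kept, with other rules for spots and probes and without each replicate, and it was 9 when any array sufficed. With the threshold 3 SD above the dimmest spike-in it was 2, and the pathway count of 36 was 10. The level of Tnf was -1.27 as the mean of both probes in place of 0.38. The median SD of the 7 detected probes was 1.63, 0.59 and 1.05 with the percentile over all probes, spike-in scaling and quantile normalization in place of 0.36, and 0.17 to 0.38 without each replicate. With the core motif 8 promoters matched in place of 2. Single levels moved by more than 1 SD for 8 of 10 probes with the percentile over all probes and with spike-in scaling, which move the zero by 2.83 and -3.03, for 5 with quantile normalization and for 3 with normexp or the deposited value table. Causes were not tested beyond these shifts of the zero. No paired analysis was possible because all samples belong to 1 group. Signals near the dimmest spike-in limit what replicates 2 and 3 can show.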
